A study of Mus musculus with 17 samples.

Results

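A pair of enzymes that act on the same base from opposite sides were targeted in CD8 T cells of the mouse spleen, and the RNA of the resulting cells was sequenced. The comparison described here sets 4 libraries labelled Dnmt3a KO against 4 labelled Tet2 KO, across every gene measured. These 8 libraries were chosen by the genetic modification that the labels give. They are 8 of 17 in the series, which also holds 4 Asxl1 KO libraries and, as the control, 5 labelled Rosa KO. All 17 were CD8 T cells whose genotype field reads CD8+Thy1.1+, Thy1.1 being a congenic surface marker used to tell transferred cells from those of a host. The sources used here do not state the method of editing, any treatment of the mice, the time of collection or the age of the animals. They also leave unsaid whether each replicate is its own animal or culture. The p-values below therefore describe spread among libraries, and that spread may be technical.

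Dnmt3a is a de novo DNA methyltransferase, which adds methyl groups to cytosine in CG dinucleotides. Tet2 oxidises such methyl groups, a step toward their removal. Both genes are known for their part in blood cell clones that expand with age, and both are known to affect how CD8 T cells divide their fate between short-lived effector cells, which kill through granzymes, and longer-lived memory or stem-like cells. The series title names the stemness of CD8 T cells in immunotherapy as its subject. The comparison of Dnmt3a KO with Tet2 KO asks at which genes loss of the one enzyme and loss of the other left the cells different.

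Total counts ran from 21642477 to 27248878 in Dnmt3a KO and from 13890261 to 30084945 in Tet2 KO. The library numbers in the labels form 3 separated runs, which the labels do not call batches. Run 1 held Dnmt3a KO 1 and 2, run 2 held Dnmt3a KO 3 and 4 with Tet2 KO 1 and 2, and run 3 held Tet2 KO 3 and 4, so run 2 is the one in which both groups can be compared directly. The 7 CD8 T cell markers summed to 4456 to 7514 CPM (counts scaled to library size) in Dnmt3a KO and 4379 to 5033 CPM in Tet2 KO, and none was at 0. Tet2 KO 2 stood apart in the RNA of other cells. Its 19 B cell markers summed to 279.7 CPM, against 5043 to 8099.6 CPM in the other Tet2 KO libraries and 1889 to 5487 CPM in Dnmt3a KO. Its 15 monocyte and macrophage markers summed to 142 CPM, against 791 to 1633 CPM in Dnmt3a KO. Tet2 KO 2 was kept, and results are also given without it. In RNA from bulk samples, fewer cells of a type and less RNA per cell cannot be told apart.

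The RNA of the targeted genes did not mark the knockouts. Dnmt3a lay at 88.1, 71.7, 115 and 76.3 CPM in Dnmt3a KO 1 to 4 and at 83.1, 103, 53.9 and 67.3 CPM in Tet2 KO 1 to 4, and the groups overlapped. Tet2 lay at 153, 106, 261 and 195 CPM in Dnmt3a KO 1 to 4 and at 216, 254, 129 and 125.1 CPM in Tet2 KO 1 to 4, and here too the groups overlapped. The log2 differences, Dnmt3a KO minus Tet2 KO, were −0.045 ± 0.28 (SE) for Dnmt3a and −0.17 ± 0.24 for Tet2, with adjusted p of 1 and 0.987. A count over the whole gene does not show a small edit, and the sources used here do not name the edited stretch, so the labels could not be checked by these counts.

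Few genes separated the knockouts. With group and run as terms, 13 of 13881 genes tested (0.0937%) passed an adjusted p of 0.05 in edgeR's quasi-likelihood test, of which 3 were higher in Dnmt3a KO (0.0216%) and 10 were lower (0.0720%). The 3 that were higher were Ubash3b, Xdh and Twsg1. Among those that were lower were the receptors Ccr2, Klrk1, Klra9 and Klrb1f, the integrin chain Itgb1, the granzyme Gzma, the surface protein Ly6c2, the protease inhibitor Ctla2a and the filament protein Vim. In 12 of the 13 the 4 Dnmt3a KO libraries and the 4 Tet2 KO libraries did not overlap, Vim being the exception. Over all genes tested, 733 (5.28%) did not overlap, and 778 (5.60%) had an unadjusted p under 0.05. All 13 had the same sign within run 2 alone and in a fit with no run term.

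Only Ubash3b and Ccr2 passed whichever single library of the 17 was left out. The total fell to 6 without Dnmt3a KO 2, 2 without Dnmt3a KO 3, 5 without Dnmt3a KO 4, 2 without Tet2 KO 1, 2 without Tet2 KO 2 and 6 without Tet2 KO 3, and rose to 22 without Asxl1 KO 1. Without Tet2 KO 2, the library poor in RNA of B cells and monocytes, the log2 differences were −2.16 for Klrb1f, −1.99 for Klra9, −1.15 for Ctla2a, −0.90 for Klrk1, −0.84 for Gzma, −0.72 for Vim and −0.71 for Itgb1, with adjusted p from 0.068 (Klra9) to 0.296 (Klrb1f).

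**Figure D1:**
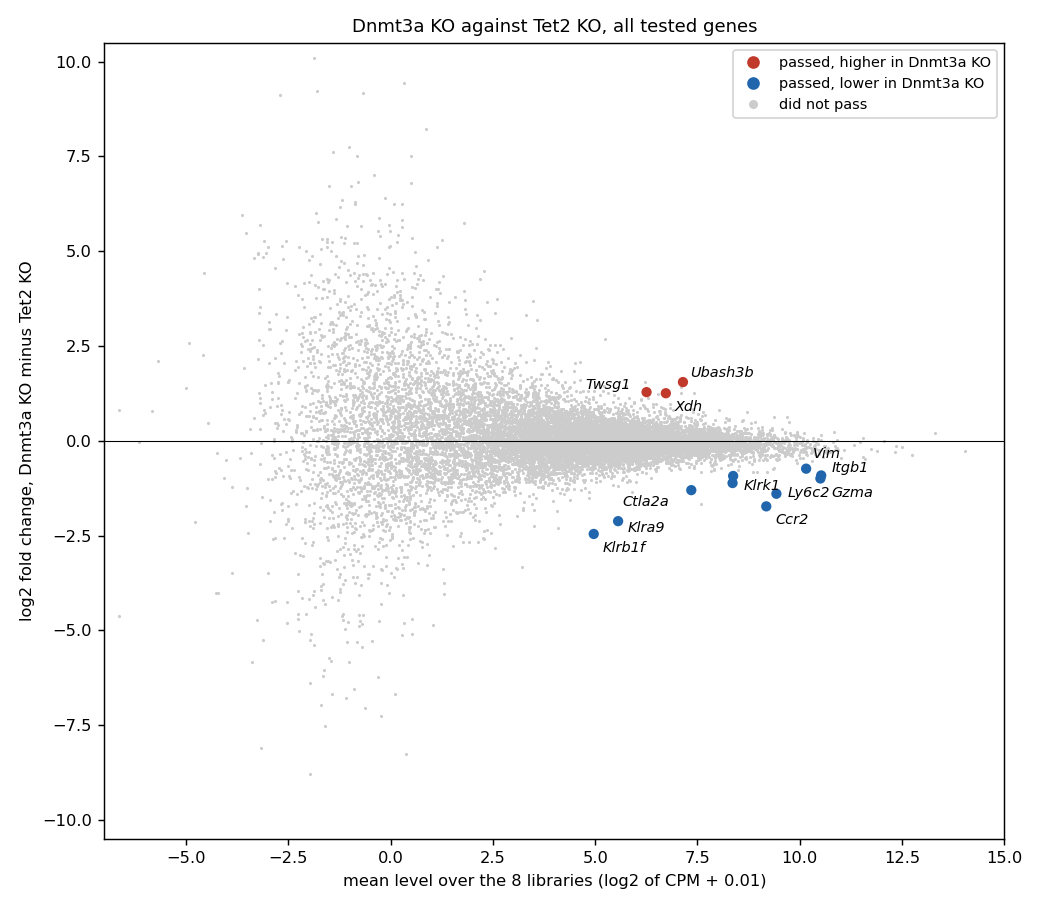
Log2 difference, Dnmt3a KO minus Tet2 KO (vertical axis), against the mean level over the 8 libraries in log2 CPM (horizontal axis), with 1 point per gene for the 13881 genes tested. The 3 genes that passed above 0 and the 10 that passed below are coloured, and 12 of them are labelled; genes of low level scatter widely around 0 without passing.

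Ubash3b was the most clearly separated of the genes higher in Dnmt3a KO. It encodes a phosphatase, also called Sts-1, that dampens signalling from the T cell receptor. Ubash3b (chromosome 9, 41010760 to 41161692, GRCm38.p6, the assembly of mm10) lay at 214, 225, 235 and 207 CPM in Dnmt3a KO 1 to 4 and at 68.5, 87.6, 38.2 and 56.0 CPM in Tet2 KO 1 to 4. The lowest Dnmt3a KO library was above the highest Tet2 KO library, and the Dnmt3a KO libraries lay close together. The log2 difference was 1.55 ± 0.18 (SE; adjusted p = 6.7e-05), and 1.68 without Tet2 KO 2. In Rosa KO the level was 173 ± 37.1 CPM (SD, n = 5). Against Rosa KO the gene was lower in Tet2 KO, with a log2 difference of −1.69 (adjusted p = 1.4e-05), while in Dnmt3a KO the difference was −0.14 (adjusted p = 0.915). Within run 2 alone it was 1.54 (adjusted p = 0.0599).

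Xdh and Twsg1 were also higher in Dnmt3a KO. Xdh encodes xanthine dehydrogenase, which carries out the last steps of purine breakdown to uric acid. Xdh (chromosome 17, 73883895 to 73950397) lay at 90.2, 124.6, 208 and 173 CPM in Dnmt3a KO 1 to 4 and at 73.2, 73.5, 48.4 and 56.0 CPM in Tet2 KO 1 to 4. Both run 2 libraries of Dnmt3a KO were higher than both of run 1, and all 4 were above every Tet2 KO library. On the log2 scale the difference was 1.25 ± 0.21 (adjusted p = 0.0169). Twsg1, a secreted protein that modulates bone morphogenetic protein signals, lay at 122, 157, 73.7 and 79.5 CPM in Dnmt3a KO 1 to 4 and at 35.8, 29.0, 53.0 and 61.5 CPM in Tet2 KO 1 to 4 (chromosome 17, 65923065 to 65951187). Here the run 1 libraries of Dnmt3a KO were the high ones. This gave a log2 difference of 1.28 ± 0.24 (adjusted p = 0.0237). Without Tet2 KO 2 the adjusted p was 0.104 for Xdh and 0.118 for Twsg1, with log2 differences of 1.20 and 1.24.

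**Figure D2:**
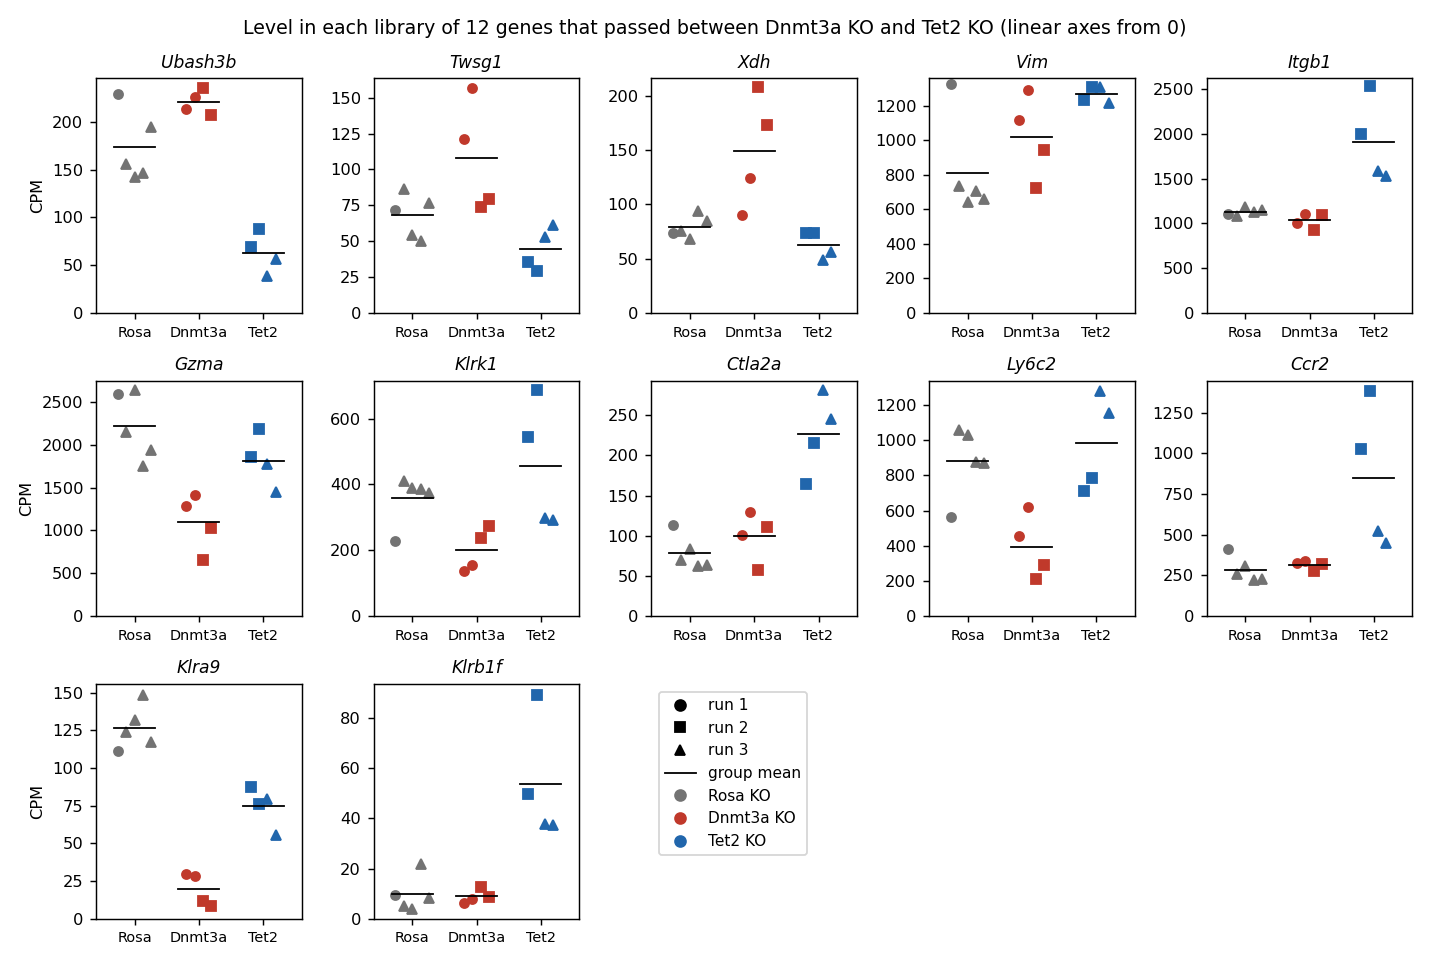
CPM in each library (vertical axes, linear from 0) of 12 genes that passed, 1 panel per gene, for Rosa KO, Dnmt3a KO and Tet2 KO; the shape of a point gives the run and the line the group mean. In the panel of Ccr2 the 4 Dnmt3a KO points lie together while the Tet2 KO points of run 2 are above those of run 3, and in that of Klra9 the Dnmt3a KO points lie below both other groups.

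Of the receptors that guide T cells to tissue, Ccr2 and Itgb1 were lower in Dnmt3a KO than in Tet2 KO. Ccr2, the receptor for the monocyte chemoattractant Ccl2 and its relatives, had the lowest p of all genes. Ccr2 (chromosome 9, 124101918 to 124109140) lay at 324, 337, 274 and 320.2 CPM in Dnmt3a KO 1 to 4 and at 1029.8, 1386, 525 and 452 CPM in Tet2 KO 1 to 4. The Dnmt3a KO libraries were close to one another and all below the Tet2 KO libraries, among which both of run 2 were well above both of run 3. The fitted log2 difference was −1.73 ± 0.18 (adjusted p = 1.4e-05), −1.54 without Tet2 KO 2 (adjusted p = 1.2e-04) and −1.99 within run 2 (adjusted p = 0.0188). With no run term it was −1.43 and did not pass (adjusted p = 0.232). Rosa KO stood at 285 ± 78.4 CPM (SD, n = 5), and Ccr2 rose in Tet2 KO against it, by 1.11 (adjusted p = 4.4e-04).

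Monocytes also carry Ccr2 and Ly6c2. The summed monocyte and macrophage markers were 142 CPM in Tet2 KO 2, the library with the highest Ccr2, and 1053, 1318 and 1238 CPM in Tet2 KO 1, 3 and 4. Lyz2, the lysozyme of those cells, was at 12.7 CPM in Tet2 KO 2 and Ctss at 91.9 CPM. In Dnmt3a KO Lyz2 ranged from 282 to 641 CPM and Ctss from 156 to 338 CPM. Of the 15 markers of the list, 0 passed between the knockouts in edgeR or DESeq2, and 0 had an unadjusted p under 0.05. The log2 difference was positive for 11 and negative for 4, with a median of 0.19, or 0.73 within run 2. The part of monocyte RNA in the differences of Ccr2 and Ly6c2 was not tested.

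Itgb1, the beta 1 integrin chain, which with alpha 4 binds the vessel wall, lay at 1008, 1109, 924 and 1098 CPM in Dnmt3a KO 1 to 4 and at 1995, 2538, 1581 and 1534 CPM in Tet2 KO 1 to 4 (chromosome 8, 128685654 to 128733579). All Dnmt3a KO libraries were below the mean of Rosa KO (1129 ± 36.0 CPM, SD, n = 5), and all Tet2 KO libraries were above it. The log2 difference of Itgb1 was −0.91 ± 0.16 (adjusted p = 0.0184).

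Of 23 chemokine, egress and homing receptors listed, 22 were tested. Of these, 3, Ccr2 and Itgb1 among them, were lower in Dnmt3a KO and 0 higher, and 5 had an unadjusted p under 0.05, each with a lower level in Dnmt3a KO, against 3.23% of all genes. Those of the 5 that did not pass were Cxcr3, the receptor of interferon-induced chemokines, at −0.50 (adjusted p = 0.738), and S1pr1, which lets T cells leave lymphoid tissue, at −0.38 (adjusted p = 0.86). The list's median log2 difference was −0.13, with 14 members negative and 8 positive, beside −0.0066 over all genes tested. With no run term the median was 0.0021, with 11 members of each sign, so its direction depended on that term.

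Of the cytotoxic genes, Gzma, Klrk1 and Ly6c2 were lower in Dnmt3a KO. Gzma encodes granzyme A, a serine protease of the killing granules. Gzma (chromosome 13, 113093824 to 113100981) lay at 1283, 1408, 651 and 1026 CPM in Dnmt3a KO 1 to 4 and at 1855, 2183, 1778 and 1446 CPM in Tet2 KO 1 to 4. The highest Dnmt3a KO library was just below the lowest Tet2 KO library, and Dnmt3a KO 3 was the lowest of the 8. The log2 difference was −0.996 ± 0.18 (adjusted p = 0.0237). Against Rosa KO (2214 ± 396 CPM, SD, n = 5) it was −1.19 in Dnmt3a KO (adjusted p = 0.0019) and −0.20 in Tet2 KO (adjusted p = 0.739). Granzyme B, from Gzmb, lay at 888, 861, 587 and 723 CPM in Dnmt3a KO 1 to 4 and at 900.1, 953, 1549 and 1302 CPM in Tet2 KO 1 to 4. Its groups did not overlap, but the log2 difference of −0.59 ± 0.15 did not pass (adjusted p = 0.174). Gzma overlaps Cdc20b in the annotation, and the sources used here do not state whether the counting used the strand.

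The lectin-like receptors Klrk1, Klra9 and Klrb1f, of families that T cells share with NK cells, were lower in Dnmt3a KO. Klrk1 encodes NKG2D, an activating receptor for stress-induced ligands, and lay at 135, 156, 237 and 275 CPM in Dnmt3a KO 1 to 4 and at 544, 686, 299 and 292 CPM in Tet2 KO 1 to 4 (chromosome 6, 129610323 to 129623903). Tet2 KO 1 and 2, both of run 2, were the highest of the 8, and Tet2 KO 3 and 4 were only slightly above Dnmt3a KO 4. On the log2 scale the difference was −1.12 ± 0.22 (adjusted p = 0.0392). Klra9 encodes Ly49I, an inhibitory receptor for MHC class I, and is named here after its values were seen. It lay at 29.7, 28.6, 11.9 and 8.34 CPM in Dnmt3a KO 1 to 4 and at 87.5, 76.0, 79.7 and 55.6 CPM in Tet2 KO 1 to 4 (chromosome 6, 130178626 to 130194374), with every Dnmt3a KO library below every library of Tet2 KO and of Rosa KO (126.8 ± 14.4 CPM, SD, n = 5). This gave a log2 difference of −2.12 ± 0.36 (adjusted p = 0.0169), and −2.98 within run 2 (adjusted p = 0.0165). Against Rosa KO, Klra9 fell in Dnmt3a KO by 2.54 on the log2 scale (adjusted p = 4.6e-04).

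Klrb1f encodes another receptor of the NKR-P1 family. Klrb1f (chromosome 6, 129045837 to 129059724) lay at 6.12, 7.97, 12.6 and 8.86 CPM in Dnmt3a KO 1 to 4 and at 49.8, 89.0, 37.8 and 37.5 CPM in Tet2 KO 1 to 4. It was low in all 4 Dnmt3a KO libraries, as in Rosa KO (9.76 ± 7.14 CPM, SD, n = 5), and Tet2 KO 2 was the highest. The fitted log2 difference was −2.46 ± 0.49 (adjusted p = 0.0445), and Klrb1f did not pass when any 1 of the 8 libraries was left out. Klrk1, Klra9, Klrb1f, Ly6c2 and Ctla2a belong to families of close paralogs, so their counts depend on how reads shared between copies were assigned, and are uncertain to that extent.

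The summed NK cell markers overlapped between the groups. The 10 markers found in the files, Klra9 among them, summed to 285 to 532 CPM in Dnmt3a KO and 382 to 489.8 CPM in Tet2 KO, with none at 0. Eomes was the largest part of the sum in each library, at 170 to 274 CPM in Dnmt3a KO and 145 to 246 CPM in Tet2 KO. The overlap of the sums therefore says little about the other markers. Ncr1, which encodes the NK receptor NKp46, was at 1.48, 10.6, 1.06 and 3.96 CPM in Dnmt3a KO and at 2.83, 0.362, 0.664 and 0.548 CPM in Tet2 KO. Klrb1c was at 26.2, 28.4, 6.11 and 5.59 CPM in Dnmt3a KO and at 36.3, 22.6, 31.8 and 21.8 CPM in Tet2 KO. Ncr1 was 1 of 3 NK markers with a positive log2 difference, 7 were negative, and the list's median was −0.22, or −0.15 within run 2 and 0.02 with no run term. The part of NK cell RNA in the differences of Klrk1, Klra9 and Klrb1f was not tested. Besides Klra9, 0 NK markers passed in edgeR or DESeq2, and 1, Klrb1c, had an unadjusted p under 0.05, at −1.27 ± 0.43 (adjusted p = 0.629). Of all genes tested, 5.60% had an unadjusted p under 0.05.

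Across the 38 effector and cytotoxic genes, 3 (Gzma, Klrk1 and Ly6c2) passed as lower in Dnmt3a KO and 0 as higher. An unadjusted p under 0.05 was reached by 17 with a lower level and 1 with a higher level in Dnmt3a KO, beside 3.23% and 2.37% of all genes. The groups of 9 members did not overlap with Dnmt3a KO below, against 2.48% of all genes, and those of 1 with Dnmt3a KO above. The median log2 difference was −0.42, with 32 members negative, and −0.43 within run 2. Against Rosa KO the list's median was negative in both knockouts, −0.77 in Dnmt3a KO and −0.26 in Tet2 KO. Among those that did not pass were Klrd1, which pairs with NKG2 receptors (−0.74 ± 0.21, adjusted p = 0.328), and Id2, a regulator of effector fate (−0.62 ± 0.18, adjusted p = 0.328). Ctsw, a cathepsin of cytotoxic cells, stood at −0.82 ± 0.21 (adjusted p = 0.219). Il12rb1, a chain of the receptor for interleukin 12, had the highest value, 0.88 ± 0.38 (adjusted p = 0.836). Without Tet2 KO 2 the list's median was −0.27, the value nearest to 0 over all alternatives. Klrg1, Cx3cr1, Zeb2 and Ifng did not pass. Klrg1, a marker of short-lived effector cells, differed by −0.51 ± 0.30 (adjusted p = 0.952), the chemokine receptor gene Cx3cr1 by −0.27 ± 0.26 (adjusted p = 0.986) and the effector transcription factor gene Zeb2 by −0.023 ± 0.21 (adjusted p = 1). Ifng, which encodes interferon gamma, differed by 0.18 ± 0.29 (adjusted p = 0.99).

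Ly6c2 encodes Ly6C, a surface protein of memory CD8 T cells and of monocytes. Ly6c2 (chromosome 15, 75108161 to 75112066) lay at 458, 621, 213 and 288 CPM in Dnmt3a KO 1 to 4 and at 710.5, 787, 1282 and 1157 CPM in Tet2 KO 1 to 4. In this gene the run 3 libraries of Tet2 KO were above those of run 2, and Dnmt3a KO 3 and 4 were the lowest. The log2 difference was −1.40 ± 0.25 (adjusted p = 0.0237), and −1.23 without Tet2 KO 2 (adjusted p = 0.112).

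Ctla2a, an inhibitor of cathepsins, and Vim, the intermediate filament vimentin, were lower in Dnmt3a KO too. Ctla2a (chromosome 13, 60934155 to 60936625) lay at 100.5, 129, 57.4 and 110.3 CPM in Dnmt3a KO 1 to 4 and at 165, 215, 281 and 245 CPM in Tet2 KO 1 to 4. Its log2 difference was −1.30 ± 0.24 (adjusted p = 0.0237). Vim (chromosome 2, 13574311 to 13582826) lay at 1114, 1291, 722 and 944 CPM in Dnmt3a KO 1 to 4 and at 1232, 1307, 1306 and 1215 CPM in Tet2 KO 1 to 4. Dnmt3a KO 2 reached the level of Tet2 KO, so the groups overlapped, and the lowest was Dnmt3a KO 3. On the log2 scale the difference was −0.74 ± 0.14 (adjusted p = 0.0273). With no run term the Vim difference was −0.31 (adjusted p = 0.918), and within run 2 −0.58 (adjusted p = 0.812), so its size depended on that term. For both genes the difference from Rosa KO passed in Tet2 KO, in which Ctla2a rose by 1.88 (adjusted p = 7.9e-05) and Vim by 0.81 (adjusted p = 9.0e-04). In Rosa KO 1, however, Vim was at 1323 CPM, above every Tet2 KO library.

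Because both enzymes act on CG dinucleotides, start regions are shown for the pair of named genes with the largest passing difference in each direction among those with an entry in the table, leaving out Klra9 because it is on the NK cell marker list, with each CG in capitals. Each runs from 250 bases before a transcript start to 50 bases after it, 5′ to 3′ on the gene's strand, from RefSeq (GRCm38.p6). Ubash3b (chr9:41158013-41158312, minus strand, the first of 2 start regions in the table) and Twsg1 (chr17:65951138-65951437, minus strand) were higher in Dnmt3a KO. Klrb1f (chr6:129045651-129045950, plus strand) and Ccr2 (chr9:124101933-124102232, plus strand) were lower.
Ubash3b: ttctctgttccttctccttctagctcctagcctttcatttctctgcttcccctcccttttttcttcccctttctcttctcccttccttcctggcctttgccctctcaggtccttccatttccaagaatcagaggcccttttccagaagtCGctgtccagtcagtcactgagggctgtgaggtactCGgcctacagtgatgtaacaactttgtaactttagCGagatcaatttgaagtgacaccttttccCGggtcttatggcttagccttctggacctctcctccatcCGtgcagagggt
Twsg1: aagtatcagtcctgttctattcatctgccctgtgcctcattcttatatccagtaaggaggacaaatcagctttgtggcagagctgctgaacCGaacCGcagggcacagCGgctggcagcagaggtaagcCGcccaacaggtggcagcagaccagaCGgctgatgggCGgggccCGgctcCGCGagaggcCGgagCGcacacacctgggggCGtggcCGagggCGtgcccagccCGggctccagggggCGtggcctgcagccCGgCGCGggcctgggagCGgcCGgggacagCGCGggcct
Klrb1f: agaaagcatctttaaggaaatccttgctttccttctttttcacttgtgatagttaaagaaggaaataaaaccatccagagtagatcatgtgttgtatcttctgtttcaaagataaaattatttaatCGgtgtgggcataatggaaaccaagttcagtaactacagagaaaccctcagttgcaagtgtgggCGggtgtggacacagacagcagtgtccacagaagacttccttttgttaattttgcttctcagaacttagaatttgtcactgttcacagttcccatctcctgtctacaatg
Ccr2: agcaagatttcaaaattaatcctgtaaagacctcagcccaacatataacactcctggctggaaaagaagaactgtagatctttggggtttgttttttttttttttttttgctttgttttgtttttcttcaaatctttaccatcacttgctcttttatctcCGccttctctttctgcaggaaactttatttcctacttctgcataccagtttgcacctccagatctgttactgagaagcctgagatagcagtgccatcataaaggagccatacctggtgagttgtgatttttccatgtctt

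The motif counted was CG, which reads the same on both strands. The Twsg1 region holds 23, that of Ubash3b 5, that of Klrb1f 2 and that of Ccr2 1. The Ubash3b and Ccr2 regions lie inside the gene spans given above, and the other Ubash3b region was not counted. Start regions were found for 9 of the 10 genes lower in Dnmt3a KO, and their median was 4, from 0 in Ly6c2 to 27 in Itgb1. Over the 10970 tested genes with a start region the median was 20, and 99.1% held at least 1 CG. The 2 of 3 higher genes with an entry are those printed. Methylation values were not analysed here, and the letters describe the sequence only.

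Of the T cell genes named whether or not they passed, Il7r had the largest difference short of the threshold. It encodes the alpha chain of the receptor for the survival cytokine interleukin 7. It lay at 85.8, 91.4, 140.5 and 116 CPM in Dnmt3a KO 1 to 4 and at 371, 498, 117 and 128 CPM in Tet2 KO 1 to 4. Tet2 KO 1 and 2 were the highest, while Tet2 KO 3 and 4 overlapped with Dnmt3a KO. This gave a log2 difference of −1.68 ± 0.43 (adjusted p = 0.283). Il7r passed within run 2 (−1.73, adjusted p = 0.0402), in a fit of the 2 groups alone (adjusted p = 0.00521) and in DESeq2 (adjusted p = 0.00405). Tcf7, which encodes TCF-1, a transcription factor that stem-like T cells depend on, lay at 181, 206, 129 and 141 CPM in Dnmt3a KO 1 to 4 and at 80.3, 126.3, 99.97 and 85.8 CPM in Tet2 KO 1 to 4. Every Dnmt3a KO library was above every Tet2 KO library, yet with run as a term the log2 difference was −0.17 ± 0.29 (adjusted p = 0.992). With no run term it was 0.74 (adjusted p = 0.915), and within run 2 0.42 (adjusted p = 0.949). Tcf7 overlaps Skp1 in the annotation.

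Of the 28 stem-like and memory T cell genes, 0 passed in edgeR and 1, Il7r, in DESeq2. At an unadjusted p under 0.05, 2 were higher and 4 lower in Dnmt3a KO, beside 2.37% and 3.23% of all genes. Bcl2, a survival gene, stood at 0.56 ± 0.19 (adjusted p = 0.607), and Actn1, a cytoskeletal gene of naive and stem-like cells, at 0.71 ± 0.28 (adjusted p = 0.793). Slamf6, a surface marker of stem-like exhausted cells, differed by −0.33 ± 0.26 (adjusted p = 0.976). The list's median was −0.16, and 0.0802 with no run term, so its sign depended on that term.

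Of 27 exhaustion and inhibitory receptor genes, 21 had a positive log2 difference, but 0 passed in edgeR, and Tox and Tox2 passed in DESeq2 as higher in Dnmt3a KO. At an unadjusted p under 0.05, 8 were higher and 2 lower in Dnmt3a KO, beside 2.37% and 3.23% of all genes. The groups of 8 did not overlap, all with Dnmt3a KO above, against 2.80% of all genes. The median log2 difference was 0.37, and it ranged from 0.27 to 0.47 over all alternatives. Tox, the transcription factor that sets up exhaustion, lay at 993, 1068, 811 and 812 CPM in Dnmt3a KO 1 to 4 and at 384, 603, 304 and 321 CPM in Tet2 KO 1 to 4. Dnmt3a KO was above Tet2 KO throughout. The fitted log2 difference was 0.63 ± 0.15 (adjusted p = 0.163). In Rosa KO the level of Tox was 615 ± 297 CPM (SD, n = 5), with Rosa KO 1, the one Rosa KO library of run 1, the highest. Against Rosa KO, Tox was lower in Tet2 KO, at −0.65 (adjusted p = 0.0249), and stood at −0.011 in Dnmt3a KO (adjusted p = 0.992). The list's medians against Rosa KO were −0.036 in Dnmt3a KO and −0.29 in Tet2 KO.

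Tox2, a close relative of Tox, was low in Tet2 KO. It lay at 26.7, 76.2, 12.3 and 14.7 CPM in Dnmt3a KO 1 to 4 and at 2.42, 3.21, 3.77 and 5.12 CPM in Tet2 KO 1 to 4, so the groups did not overlap, with a log2 difference of 1.85 ± 0.42 (adjusted p = 0.115). Tox2, Nfatc1 and the other listed genes outside the naming rule were chosen after their values were seen. Nfatc1, a transcription factor switched on by calcium signals, differed by 0.54 ± 0.16 (adjusted p = 0.356). Of the inhibitory receptors, Lag3 lay at 83.3, 115, 45.4 and 53.2 CPM in Dnmt3a KO 1 to 4 and at 23.2, 21.0, 57.2 and 49.2 CPM in Tet2 KO 1 to 4, with overlap between the groups. Its log2 difference was 0.80 ± 0.23 (adjusted p = 0.325). Pdcd1, which encodes PD-1, did not overlap (164, 159, 109.7 and 115 CPM against 76.9, 98.4, 86.2 and 100.03 CPM), with a log2 difference of 0.28 ± 0.21 (adjusted p = 0.969). Havcr2, which encodes TIM-3, differed by −0.18 ± 0.21 (adjusted p = 0.987).

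Cd6, Cd80 and Srgap3 followed by p among the genes with Dnmt3a KO above that the naming rule allowed, and did not pass. Cd6, a scavenger-type receptor at the T cell synapse, lay at 107, 168, 110.1 and 141 CPM in Dnmt3a KO 1 to 4 and at 54.8, 56.7, 51.9 and 51.0 CPM in Tet2 KO 1 to 4, and its log2 difference was 1.25 ± 0.27 (adjusted p = 0.0856). Cd80, a ligand of CD28 and CTLA-4, lay at 36.7, 67.7, 71.8 and 69.2 CPM in Dnmt3a KO 1 to 4 and at 25.5, 33.7, 19.3 and 25.7 CPM in Tet2 KO 1 to 4, with Dnmt3a KO 1 the lowest of its group. Its log2 difference was 1.20 ± 0.26 (adjusted p = 0.0873). Srgap3 differed by 1.10 ± 0.24 (adjusted p = 0.0927). In DESeq2 all 3 passed (adjusted p = 0.00475, 0.00146 and 0.00394).

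Cd4 was higher in each Dnmt3a KO library than in any Tet2 KO library. Its level was 72.2, 99.5, 54.2 and 52.8 CPM in Dnmt3a KO 1 to 4 and 13.9, 0.0905, 4.50 and 6.64 CPM in Tet2 KO 1 to 4. The 8 CD4 and regulatory T cell markers summed to 135 to 224 CPM in Dnmt3a KO and 68.6 to 80.4 CPM in Tet2 KO, with at most 1 at 0 in a library. Cd4 itself did not pass (2.69 ± 0.95, adjusted p = 0.711), nor did any of the 7 tested markers in edgeR or DESeq2, and 2 (Cd4 and Ikzf4) had an unadjusted p under 0.05. Cd8a was at 906, 977, 756 and 928 CPM in Dnmt3a KO and 649, 725, 744 and 736 CPM in Tet2 KO. Of the other markers, 0 of 19 for B cells, 8 for plasma cells, 12 for neutrophils, 10 for dendritic cells, 9 for erythroid cells, 8 for platelets, 2 for gamma delta T cells and 7 for CD8 T cells passed in edgeR, with 1 to 2 of the neutrophil, platelet and CD8 T cell lists at an unadjusted p under 0.05, and 1 platelet gene, Treml1, passed in DESeq2. Over all genes tested, 5.60% had an unadjusted p under 0.05. The part of CD4 T cell RNA in the differences of Cd6, Twsg1, Tox2 and the costimulatory genes was not tested.

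Of 16 genes of the T cell receptor complex and its proximal signalling, 0 passed in edgeR and 1, Cd6, in DESeq2, with a median of 0.042. At an unadjusted p under 0.05, 3 were higher and 3 lower, beside 2.37% and 3.23% of all genes. These shares of all genes also stand beside the counts of the next lists. Of 13 costimulatory receptor genes, 0 passed in edgeR or DESeq2, with 2 higher and 1 lower at an unadjusted p under 0.05 and a median of 0.19 (−0.071 to 0.41 over all alternatives). Tnfrsf9, which encodes 4-1BB, differed by 0.79 ± 0.34 (adjusted p = 0.831). Of 22 cytokine receptor genes, 0 passed in edgeR and 1, Il7r, in DESeq2, with 1 higher and 1 lower at an unadjusted p under 0.05 and a median of −0.23 (−0.28 to −0.029 over all alternatives). Il2rb, the beta chain shared by the receptors of several interleukins, did not overlap between groups (Dnmt3a KO above) at a log2 difference of 0.15 ± 0.17 (adjusted p = 0.987). Of 11 tissue residency genes, 0 passed in edgeR or DESeq2 and 0 reached an unadjusted p under 0.05, with a median of 0.16 (−0.02 to 0.43 over all alternatives).

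No gene of the methylation cycle passed between the knockouts. Of 25 DNA methylation and demethylation genes listed, 24 were tested and 0 passed in edgeR or DESeq2. At an unadjusted p under 0.05, 2 were higher and 0 lower in Dnmt3a KO, beside 2.37% and 3.23% of all genes. The groups of 2 members did not overlap with Dnmt3a KO below, against 2.48% of all genes, and those of 0 with Dnmt3a KO above. Dnmt3b, the other de novo methyltransferase, had a log2 difference of 1.10 ± 0.53 (adjusted p = 0.878), and Ogt, the glycosyltransferase that binds Tet proteins, 0.36 ± 0.16 (adjusted p = 0.856). The list's median was −0.071 (−0.17 to 0.034 over all alternatives). Of 23 genes of Polycomb and its deubiquitinase, 0 passed in edgeR or DESeq2 and 0 reached an unadjusted p under 0.05, with a median of −0.0073 (−0.031 to 0.14 over all alternatives). Germline genes, a class often silenced by promoter methylation, were mostly too low to test. Of 18, 3 were tested, 0 passed in edgeR or DESeq2 and 0 had an unadjusted p under 0.05. Their median was 1.69, with 2 positive and 1 negative. Over all alternatives, which did not all test the same germline genes, it ranged from 0.82 to 2.86. The groups of 1 did not overlap, with Dnmt3a KO above, against 2.80% of all genes. Of 25 imprinted genes, 10 were tested and 0 passed in edgeR or DESeq2. At an unadjusted p under 0.05, 1 was lower in Dnmt3a KO, beside 3.23% of all genes. The median of the imprinted genes was 0.064 (−0.20 to 0.21 over all alternatives).

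All 66 cytosolic ribosomal protein genes had a negative log2 difference, with a median of −0.28 and a range over all alternatives of −0.43 to −0.17, but 0 passed in edgeR or DESeq2. Over all genes tested, 7021 of 13881 were negative. At an unadjusted p under 0.05 were 14, all lower in Dnmt3a KO, beside 3.23% of all genes. The groups of 0 members did not overlap, against 5.28% of all genes. Of 53 oxidative phosphorylation genes, 50 were negative and 0 passed in edgeR or DESeq2. An unadjusted p under 0.05 with a lower level in Dnmt3a KO was reached by 11, beside the same 3.23%. Their median was −0.29. Against Rosa KO, both lists had positive medians in both knockouts, 0.34 in Dnmt3a KO and 0.59 in Tet2 KO for the ribosomal genes and 0.22 and 0.55 for oxidative phosphorylation.

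Of 29 cell division genes, 0 passed in edgeR or DESeq2 and 0 reached an unadjusted p under 0.05, with a median of −0.15. That median was positive with no run term (0.16, 21 of 29 genes positive) and without Dnmt3a KO 3 (0.057). Of 28 DNA replication genes and 25 replication-dependent histone genes, 0 passed in edgeR or DESeq2. In each list 1 gene was lower in Dnmt3a KO at an unadjusted p under 0.05, beside 3.23% of all genes. The list medians were −0.32 and −0.26. Over all alternatives the DNA replication median ranged from −0.52 to −0.16, with −0.16 for no run term and −0.52 without Tet2 KO 1. Without Dnmt3a KO 3 the histone median was 0.11, with 15 of 25 genes positive. Of 35 interferon response genes, 0 passed in edgeR and 2 in DESeq2. At an unadjusted p under 0.05, 6 were lower in Dnmt3a KO, beside 3.23% of all genes. Among the 6 were the pair that passed in DESeq2, Ifi27l2a (−0.83 ± 0.20, adjusted p = 0.132) and Ifi208 (−0.81 ± 0.19, adjusted p = 0.132). The median of that list was −0.22 (−0.24 to −0.0695 over all alternatives). Of 23 glycolysis genes and 27 immediate early genes, 0 passed in edgeR or DESeq2. At an unadjusted p under 0.05 were 1 glycolysis gene, higher in Dnmt3a KO, and 2 immediate early genes, 1 in each direction. Of all genes, 2.37% were higher and 3.23% lower at that threshold. The list medians were −0.0078 and −0.029. Over all alternatives these medians ranged from −0.15 to 0.11 and from −0.20 to 0.38.

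**Figure D3:**
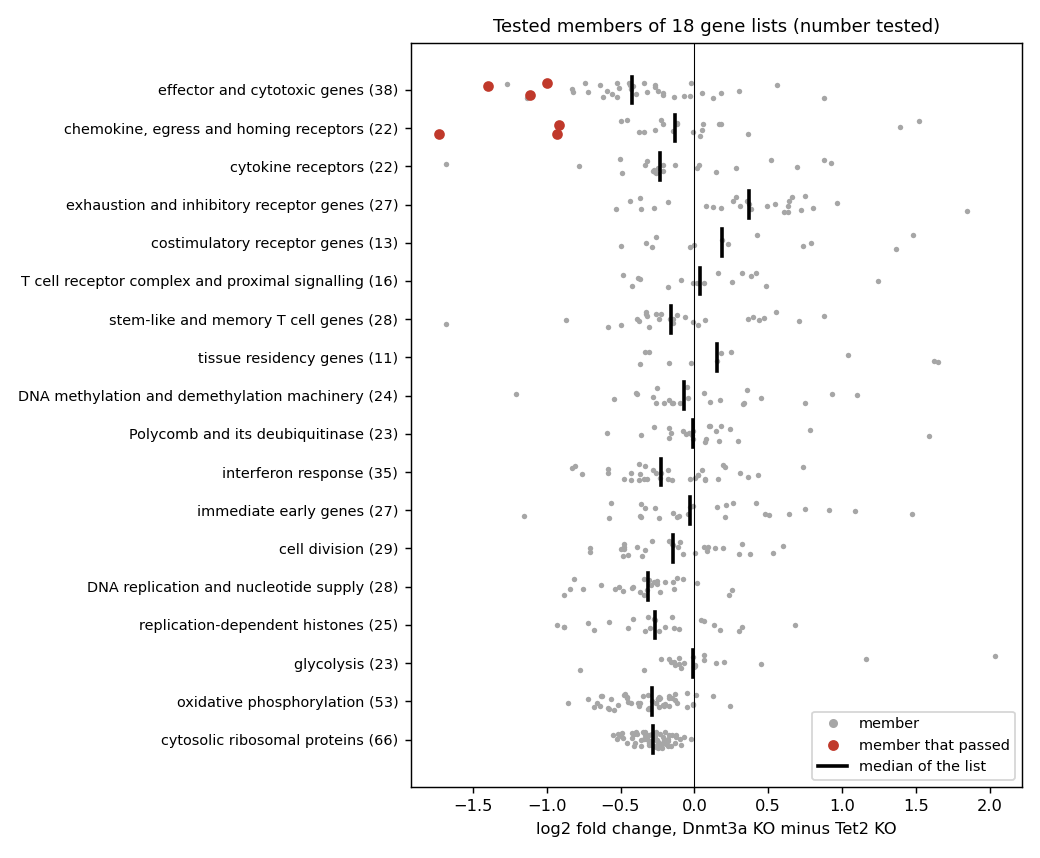
Log2 difference, Dnmt3a KO minus Tet2 KO (horizontal axis), of each tested member of 18 gene lists, 1 row per list, from the fit over 17 libraries, with members that passed in red and list medians as black bars. The bulk of the effector list lies left of 0 (median −0.42) and that of the exhaustion list right of it (median 0.37), while every ribosomal protein gene lies between −0.55 and −0.025.

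Each knockout was also set beside Rosa KO for the 13 genes. The comparisons with Rosa KO share the same 5 control libraries, so their values are given side by side and not as independent evidence. Rosa KO 1 was in run 1 and Rosa KO 2 to 5 in run 3, with no control in run 2. Dnmt3a KO thus shared a run with Rosa KO 1 only, and Tet2 KO with Rosa KO 2 to 5. The numbers of genes that passed in the comparisons therefore rest on unequal support from the controls. Between Dnmt3a KO and Rosa KO 30 genes passed (0.216%), 5 higher and 25 lower. Between Tet2 KO and Rosa KO 204 passed (1.47%), 137 higher and 67 lower. Of the 13, 3 passed in Dnmt3a KO against Rosa KO (Gzma, Klrk1 and Klra9), all lower. In Tet2 KO against Rosa KO 7 passed, of which Vim, Itgb1, Ctla2a, Ccr2 and Klrb1f were higher and Ubash3b and Xdh lower. The other 3, Twsg1 and Ly6c2 among them, passed in neither, and 0 passed in both. Because the 13 were chosen for a difference between the knockouts, genes moved alike in both were largely left out. That 0 passed in both follows in part from this choice. Klrk1 stood at −1.18 in Dnmt3a KO (adjusted p = 0.0273) and −0.065 in Tet2 KO (adjusted p = 0.949). Ly6c2 stood at −0.67 and 0.73 (adjusted p = 0.523 and 0.163). Tcf7 rose in both knockouts, by 1.79 (adjusted p = 0.0051) and 1.95 (adjusted p = 2.7e-04). Its level in Rosa KO 1 was 102 CPM, against 14.2 to 24.6 CPM in Rosa KO 2 to 5.

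**Figure D4:**
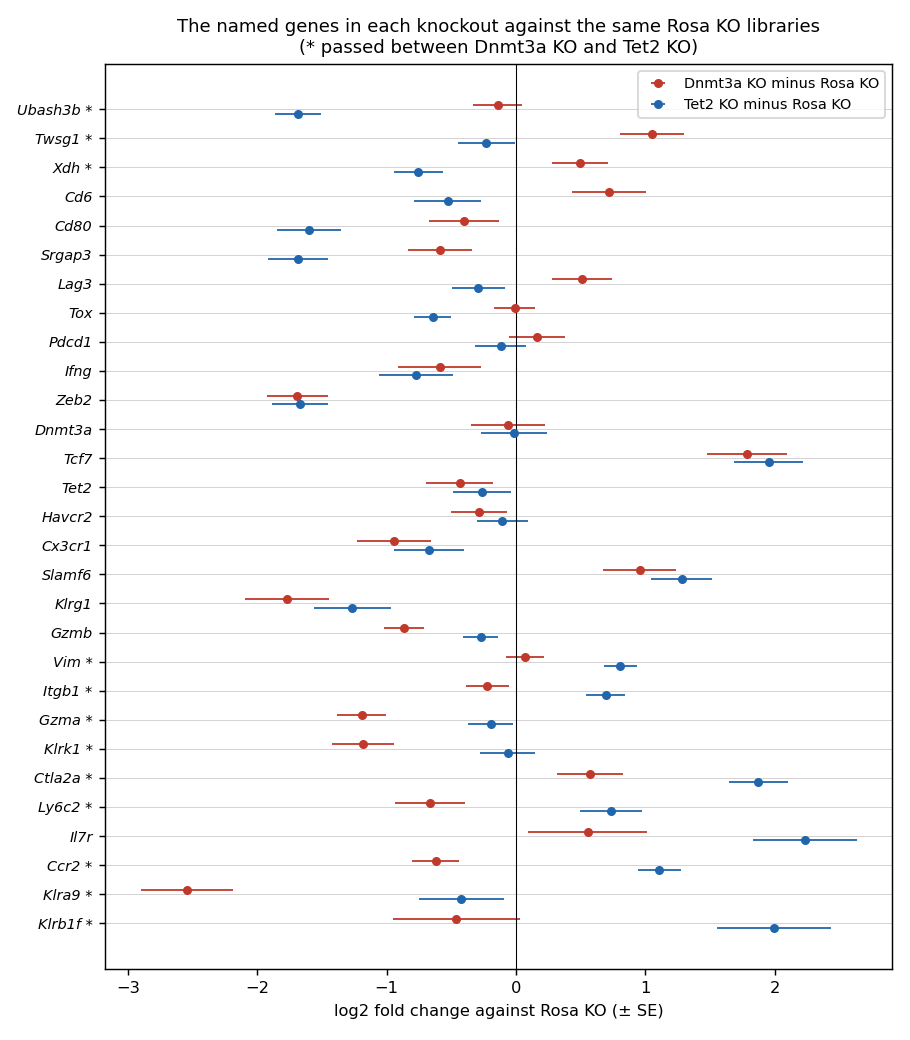
Log2 difference from the same 5 Rosa KO libraries (horizontal axis) of the 29 named genes in Dnmt3a KO (red) and Tet2 KO (blue), with bars of ± 1 SE; an asterisk marks the 12 of them that passed between the knockouts. For Ubash3b, Ctla2a, Vim, Ccr2 and Klrb1f the Tet2 KO point lies farther from 0 than the Dnmt3a KO point, while for Gzma, Klrk1 and Klra9 the reverse is drawn.

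Within run 2 alone, 2 Dnmt3a KO libraries stood against 2 Tet2 KO libraries, and 5 of 13261 genes (0.0377%) passed, all lower in Dnmt3a KO. Of the 13 genes, Ccr2, Klra9 and Klrb1f were among them, and Il7r and Esm1 were the others. Esm1, which encodes a secreted proteoglycan named for endothelial cells, differed by −1.88 (adjusted p = 0.0402) and is named after its values were seen. Klrb1f differed by −2.66 there (adjusted p = 0.0402). With no run term, so that runs 1 and 3 were compared directly, 1 gene passed, Ubash3b, at 1.81 (adjusted p = 0.00332). DESeq2 passed 73 genes, 45 higher and 28 lower in Dnmt3a KO, and the 13 were among them.

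**Figure D5:**
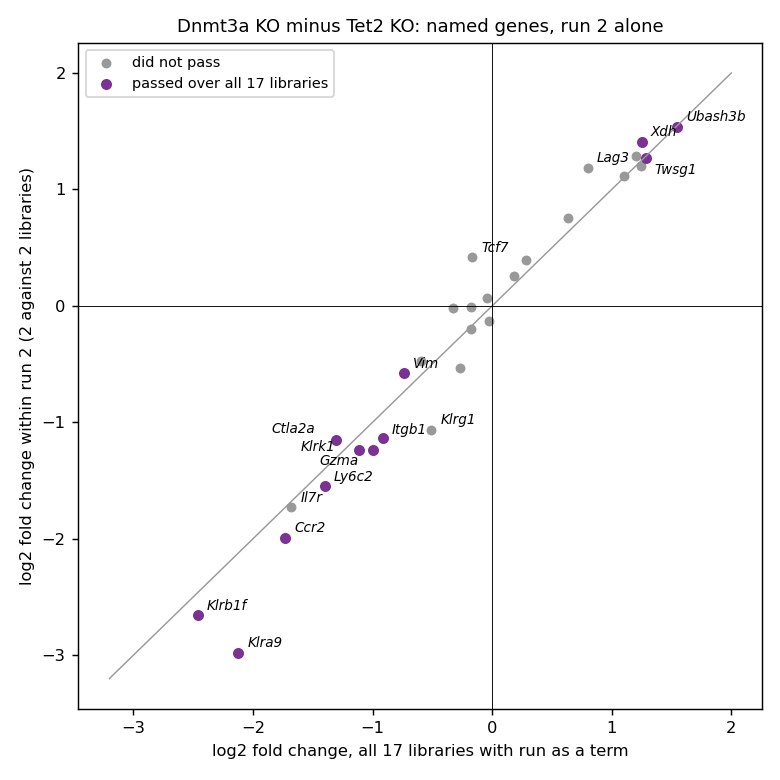
Log2 difference within run 2 alone (vertical axis, 2 libraries against 2) against that from all 17 libraries with run as a term (horizontal axis), for the 29 named genes. The 12 of them that passed lie in the lower left and upper right quadrants, on the same side of 0 in both, while Tcf7 (−0.17 and 0.42) and Dnmt3a (−0.045 and 0.071) change side.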

How the data were processed

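RNA-seq counts were analysed for 17 libraries. The authors deposited raw counts per gene, 1 table per library, listing 24594 genes by symbol and NCBI number. Per the submitters' processing notes, STAR 2.5.3a, DESeq2 1.26.0 and build mm10 were used, with no role stated. The sources used here do not name the counting tool or its strand setting. Although the labels give genomic DNA as the molecule, their protocols describe RNA isolation and a stranded total RNA kit, and the counts were read as RNA-seq. Coordinates are those of RefSeq GRCm38.p6, matched by identifier for 24570 genes.

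Counts were scaled by TMM and tested in edgeR 4.0.16 (R 4.3.3) by its robust quasi-likelihood F test. The model had terms for group and run and took in all 17 libraries, which share 1 estimate of the spread (11 residual degrees of freedom, biological coefficient of variation 0.604). After filterByExpr, with a minimum count of 10 and a minimum total of 15, 13881 genes remained, and Benjamini-Hochberg adjustment ran over these with a threshold of 0.05. CPM are TMM-scaled. Pairs of replicates differed by more than sampling noise, so none was counted as 1 sample.

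The text names the targeted genes, a set of T cell genes fixed whatever their result, passing members of the lists, and the passing genes with the largest differences at 5 CPM or more in the higher group, filled where fewer passed by the next genes in order of p. Some genes of this choice are not reported here. The 20 pathway lists, 11 marker lists and the 8 libraries were chosen with earlier results of these data known. Alternatives were DESeq2 1.42.0, its size factors, 2 other filters, no run term, the 2 groups alone, run 2 alone, a replicate block, a B cell marker covariate and each of 17 libraries left out. Lists are described by counts and medians, with no test of a list.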

Additional observations from a re-analysis of the deposited data

Results flagged for a closer look

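In groups of 4 or 5 libraries, 1 library lay far from the others, by the gap to its nearest neighbour over the range of the group, for 9 of the 87 gene and group combinations examined (29 named genes in 3 groups). Chance alone gives about 5% of groups. Of the 9, 6 were in Rosa KO 1, the one Rosa KO library of run 1, which enters the comparisons with Rosa KO. Ifng was at 81.9 CPM in Rosa KO 1, with the nearest of the other Rosa KO libraries at 398 CPM. The value of Lag3 there was 95.6 CPM, against 60.1 CPM in the nearest. The value of Tcf7 there was 102 CPM, against 24.6 CPM in the nearest. The value of Vim there was 1323 CPM, against 732 CPM in the nearest. The value of Tox there was 1142 CPM, against 538 CPM in the nearest. The value of Klrk1 there was 229 CPM, against 373 CPM in the nearest. Cd6 in Rosa KO 2 was at 139 CPM, against 80.8 CPM in the nearest library of its group. Cd80 in Dnmt3a KO 1 was at 36.7 CPM, against 67.7 CPM in the nearest library of its group. Srgap3 in Dnmt3a KO 3 was at 129 CPM, against 94.0 CPM in the nearest library of its group.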

How the results depend on the processing

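The 12 named genes that passed kept their sign under all 26 alternatives, while the number that passed did not hold. The fit reported gave 13 (3 higher and 10 lower in Dnmt3a KO). DESeq2's size factors gave 13 (3 and 10), a minimum of 1 CPM in 4 libraries 12 (3 and 9), and a B cell marker covariate 13 (7 and 6). Of the 13 with that covariate, only 9 were shared with the fit reported. Klrk1, Klrb1f and Vim were among those that no longer passed (adjusted p = 0.0818, 0.121 and 0.0645). DESeq2 gave 73 (45 and 28), no filter 66 (36 and 30), no run term 1 (1 and 0), the 2 groups alone 10 (2 and 8) and run 2 alone 5 (0 and 5). With any 1 library left out, the total ran from 2 to 22, the higher genes from 1 to 9 and the lower genes from 1 to 13. With no filter the median over all genes was 0.13, against −0.0066. The median log2 difference changed sign under at least 1 alternative in 11 of the 20 pathway lists, and in 5 of them with no run term. Apart from the cases that leave out a library, the causes of these changes were not tested.

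Replicate numbers did not pair the libraries. The correlations of same-numbered Dnmt3a KO and Tet2 KO libraries, after removing group means, were −0.01, −0.12, −0.19 and −0.06. A replicate block, which takes degrees of freedom without a pairing in the labels, left 1 gene (0 higher and 1 lower), Ccr2, with an adjusted p of 0.0416.

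Among named genes that did not pass, the sign turned in some alternatives. With no run term the log2 difference was 0.23 for Cx3cr1, 0.19 for Dnmt3a, −0.67 for Ifng, 0.25 for Havcr2 and 0.74 for Tcf7. In the 2 groups alone it was 0.066 for Dnmt3a and 0.42 for Tcf7, and in run 2 alone 0.071 and 0.42. With the replicate block it was 0.061 for Zeb2 and 0.0031 for Klrg1. With the B cell covariate it was 0.0066 for Dnmt3a and 0.0495 for Zeb2, and with the CPM minimum 0.0029 for Zeb2. With 1 library left out, the ranges were −0.42 to 0.0069 for Cx3cr1, −0.21 to 0.10 for Dnmt3a, −0.026 to 0.49 for Ifng, −0.37 to 0.082 for Tet2, −0.39 to 0.018 for Tcf7 and −0.20 to 0.26 for Zeb2.

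Group and run are partly confounded, with 4 libraries in the one run that holds both knockouts. With 4 libraries a group and a biological coefficient of variation of 0.604, small differences can go undetected, and a gene that did not pass is not shown to be equal.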
